A study of Mus musculus with 4 samples.

Results

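The cells described here are the chaperone-high cells of a library of freshly isolated satellite cells, the resident stem cells of mouse skeletal muscle. They were picked by a rule that read the measured counts. Of 2705 deposited barcodes of that library, 2230 were kept with at least 1000 unique molecular identifiers (UMIs, 1 per captured transcript), at least 500 genes, at most 10% mitochondrial UMIs and under 0.5% of UMIs from 5 fibroblast genes (Col1a1, Col1a2, Col3a1, Dcn and Postn). From these, 405 Calcr-high cells (at least 3 Calcr and at most 1 Myod1 UMIs) and then the 365 Slco2a1-high cells (the top 20% of the rest by the summed share of Slco2a1, Spock3, Chrm3, Rnf180 and Tmtc2) were set aside. The chaperone-high cells were the 20% of the remaining 1460 with the largest share of UMIs from Hspd1, Hspe1, Dnajb1 and Hspb1. They numbered 292, which is 13.1% of the kept cells of that library and compares with 28363 barcodes in all 4 libraries. The other 1168 cells of the last step are called the remaining cells, and all 1938 kept cells outside the group the other kept cells.

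The series profiled mouse muscle cells by droplet 3′ single-cell RNA sequencing, with 1 library per group and no replicates, to compare muscle stem cells taken from the animal with cells grown in culture. All mice carried the Pax7-nGFP reporter, a nuclear green fluorescent protein driven by the promoter of the satellite cell transcription factor Pax7. The freshly isolated library (fiSC) came from limb muscles of 3 male mice aged 13 weeks, whose GFP-positive cells were sorted and pooled. The muscle was minced and digested with Collagenase II before the sort. For activated satellite cells (ASC), 17 tibialis anterior muscles of male and female mice aged 18 to 24 weeks were taken 3 days after cardiotoxin injury and sorted for GFP in the same way. Myoblasts were cultured cells at passage 2 from a male mouse aged 16 weeks. Myogenic progenitor cells (MPC) were myoblasts after 2 passages that then had 5 passages in a medium with Forskolin, Repsox and CHIR9901, and their parental cells also came from a male mouse aged 16 weeks.

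Heat shock proteins are molecular chaperones, which bind unfolded or damaged proteins and help them fold. HSP70 proteins work in a cycle driven by ATP that DnaJ (HSP40) cochaperones start and HSP110 proteins reset, HSP90 matures signalling proteins, and small heat shock proteins hold clients without ATP. Hspd1 and Hspe1 encode HSP60 and HSP10, the chamber and lid of the chaperonin in the mitochondrial matrix. Dnajb1 encodes a DnaJ partner of cytosolic HSP70, and Hspb1 encodes the small heat shock protein HSP27. Transcription of many of these genes is driven by heat shock factor 1 through heat shock elements, which are inverted repeats of the letters GAA, and satellite cells released from muscle by enzymes are known to carry stress and immediate early transcripts.

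Upstream sequences are printed for 3 genes that carried much of the chaperone signal, to show how such letters lie before them. They are the 250 bases before the start of Hspe1 at chr1:55087898-55088147 (plus strand), of Hspb1 at chr5:135887669-135887918 (plus strand) and of Hspa1b at chr17:34959239-34959488 (minus strand), from RefSeq on GRCm38.p6. Capitals mark units of GAA or TTC that face each other across 2 bases.
Hspe1: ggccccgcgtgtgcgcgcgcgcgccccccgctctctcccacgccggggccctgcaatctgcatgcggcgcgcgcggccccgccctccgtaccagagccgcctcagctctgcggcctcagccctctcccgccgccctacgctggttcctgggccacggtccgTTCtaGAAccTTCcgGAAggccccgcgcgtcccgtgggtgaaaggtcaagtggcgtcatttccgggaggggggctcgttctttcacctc
Hspb1: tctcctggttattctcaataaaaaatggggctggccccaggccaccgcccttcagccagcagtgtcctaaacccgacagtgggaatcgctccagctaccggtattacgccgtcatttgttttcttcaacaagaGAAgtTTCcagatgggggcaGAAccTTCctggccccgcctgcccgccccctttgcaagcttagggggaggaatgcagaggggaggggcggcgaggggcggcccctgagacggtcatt
Hspa1b: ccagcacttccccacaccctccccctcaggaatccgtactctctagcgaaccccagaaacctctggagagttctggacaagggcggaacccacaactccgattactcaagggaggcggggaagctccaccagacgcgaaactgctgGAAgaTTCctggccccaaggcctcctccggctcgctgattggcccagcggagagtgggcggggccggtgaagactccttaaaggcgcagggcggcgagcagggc

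In the Hspe1 sequence 4 units followed each other without a break. The Hspb1 sequence held 4 units in 2 separate pairs, and the Hspa1b sequence held 2 units in 1 pair. Hspe1 and Hspd1 are transcribed away from each other: of the 2 Hspd1 promoters in the table, 1 on the minus strand at chr1:55087883-55088182 overlapped the Hspe1 promoter by 285 bases and held the same 4 units. The letters searched were GAANNTTC and TTCNNGAA, each of which reads the same on both strands, and the 3-unit forms GAANNTTCNNGAA and TTCNNGAANNTTC, which are each other's reverse complement and contain the shorter forms. Over all 32851 promoters of 300 bases in the table (250 before and 50 from the start on), 15.1% held a 2-unit form and 0.603% a 3-unit form. Among measured genes with a promoter in the table, a 2-unit form was found in at least 1 promoter of 3 of 6 genes of the HSP70 and HSP110 list, 4 of 10 DnaJ genes, 3 of 9 genes of the HSP90 list and 3 of 19 immediate early genes. Hspa8, Hsp90aa1 and Hsp90ab1 had no promoter in the table and are not in these counts. A 2-unit form was also found in 6 of 19 genes (31.6%) of mitochondrial chaperones, proteases and import. TRiC and prefoldin had it in 3 of 12 genes, and the other heat-inducible genes in 2 of 13 (15.4%). With the rule genes left out, it was found in 31 of 120 genes higher than in the other kept cells (25.8%). Among the lower genes it was found in 91 of 648 (14.0%). It was found in 0 of 16 genes of the endoplasmic reticulum (ER) unfolded protein response and in 615 of 4645 measured genes (13.2%). A 3-unit form was found for Hspe1, Hspd1, Hsph1, Dnajb6, Chordc1 and the mitochondrial import gene Timm9 among the measured genes of these lists and the rule genes, and the 2 promoters of Dnajb1 held neither form. A match describes the letters of the reference only.

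The share of UMIs from the 4 rule genes chose the cells, so its level is a description. In the chaperone-high cells the share ran from 1.87% to 10.9% with a median of 3.30%, against a median of 0.219% and a maximum of 1.86% in the remaining cells. The lowest share inside the group was 1.86692% and the highest outside was 1.86153%, so the boundary lay within a continuous range and not in a gap. Among the cells set aside earlier, 147 of 405 Calcr-high cells (36.3%) and 4 of 365 Slco2a1-high cells (1.10%) lay past the lowest share of the group. A high chaperone share was therefore not limited to the cells that the rule named.

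**Figure D1:**
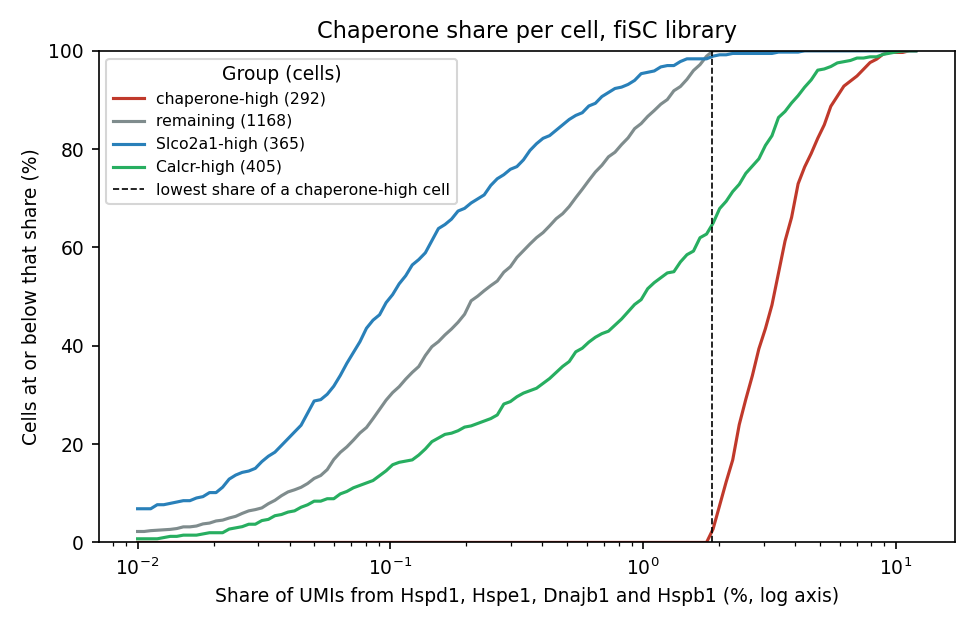
Cumulative curves of the share of UMIs from the 4 rule genes per cell (x axis, percent, log scale) against the percent of cells at or below it (y axis), for 4 groups of fiSC cells. The dashed line marks the lowest share of a chaperone-high cell, 1.87%, and 36.3% of Calcr-high cells lie to its right.

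Hspb1 (HSP27) had a median of 179 UMIs per chaperone-high cell (range 1 to 659), against 6 in the other kept cells (range 0 to 646). Dnajb1, the HSP70 partner, had a median of 53 UMIs (0 to 411) against 1 (0 to 404). Hspe1 (HSP10) had a median of 59 UMIs (0 to 283) against 3 (0 to 366), and Hspd1 (HSP60) 28.5 (0 to 141) against 2 (0 to 251). The ranges of all 4 genes overlapped between the groups, while the medians were far apart. Of the 292 cells, 282 carried at least 1 UMI of each of the 4 genes and 10 lacked at least 1 of them.

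Summed over cells and scaled to counts per 1000000 UMIs of the group (CPM), Hspb1 stood at 19116 CPM in the chaperone-high cells and 4121 CPM in the other kept cells, Dnajb1 at 6446 and 1406, Hspe1 at 6300 and 1433, and Hspd1 at 3362 and 844 CPM. In UMIs, Hspb1 was the largest of the 4 in 250 cells, Dnajb1 in 22, Hspe1 in 16 and Hspd1 in 4. A median of 54.1% of a cell's 4-gene UMIs came from Hspb1, but this ran from 0.361% to 97.6%. The rule therefore drew mainly on Hspb1.

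To read each gene apart from the choice, the cells were chosen again on the other 3 genes. Hspd1 was then 3.64-fold higher than in the other kept cells (95% interval 3.55 to 3.73), Hspe1 3.93-fold (3.86 to 4.01), Dnajb1 3.66-fold (3.59 to 3.73) and Hspb1 3.59-fold (3.55 to 3.63). The intervals are exact and cover counting error only. Of the 292 cells chosen without Hspb1, 242 were chaperone-high cells, and the number was 265 without Dnajb1, 277 without Hspe1 and 282 without Hspd1. Choosing on the mitochondrial pair Hspd1 and Hspe1 alone took 222 of the same cells, and the cytosolic genes were high in that choice too: Hspb1 was 3.31-fold (3.28 to 3.35) and Dnajb1 3.61-fold (3.54 to 3.68) higher. When each cell's UMIs were split at random into equal parts, 1 to choose and 1 to read, 284 of the 292 cells were chosen again. In the UMIs that were only read, the folds were 4.01 for Hspd1, 4.37 for Hspe1, 4.46 for Dnajb1 and 4.59 for Hspb1. The same 4 genes of the same cells both chose and were read here. This split therefore sets aside counting error only, and its folds remain a description of the choice.

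Across 1367 cells of the last step thinned to 3000 UMIs each, Spearman's rho was 0.61 between Hspd1 and Hspe1, 0.60 between Hspb1 and Dnajb1, 0.72 between Dnajb1 and Hspa1a, and 0.58 between Hspb1 and Hspa1a. Within the 286 chaperone-high cells among them, rho was 0.53 for Hspd1 with Hspe1 and 0.43 for Dnajb1 with Hspa1a. It was 0.05 for Hspd1 with Hspb1 and -0.03 for Hspb1 with Dnajb1. These cells share 1 library, and within the group the choice on a sum restricts the 4 genes, so the values are descriptions.

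The group carried the satellite cell identity given by the labels. Pax7 was found in 288 of its 292 cells (98.6%), against 87.2% of the other kept cells, at 980 CPM against 823 CPM. The cells were also deeper, with a median of 10283.5 UMIs against 8602, and after thinning every cell to 3000 UMIs (6 chaperone-high and 143 other cells were shallower and left out) Pax7 was found in 88.5% against 73.5%. Each of the 10 myogenic progenitor markers reached 20 CPM, and the list summed to 5725 CPM against 6847 CPM in the other kept cells. EGFP, the reporter transcript, stood at 84.7 CPM against 62.4 CPM.

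Markers of most other cell types were low. The fibroblast list was the largest, at 764 CPM against 658 CPM in the other kept cells, with Pdgfra and Pi16 at 0, and the mural list was at 193 against 144 CPM. The endothelial list summed to 33.9 against 35.4 CPM. Markers of differentiating myocytes and mature fibres summed to 28.8 and 15.0 CPM in the chaperone-high cells, with Mymx, Myh3, Myh2 and Myh7 at 0. The macrophage list summed to 3.52 CPM, with Lyz2, C1qa, C1qb, C1qc, Fcer1g and Tyrobp at 0, and all 7 T or NK cell markers were at 0 (a limit of 0.959 CPM per gene for 3 counts over the group). A marker list of another cell type made up at least 0.5% of UMIs in 3 of the 292 cells and in 15 of the other kept cells. The adipocyte list reached 109 CPM against 46.5 CPM, with 1 of its 6 genes at 20 CPM or more and Adipoq, Plin1, Cfd and Lep at 0. Without the 3 and 15 cells past 0.5%, 151 genes were higher and 810 lower than in the other kept cells (154 and 813 with them, below). The median mitochondrial share was 3.31% against 3.39%. Scrublet, a doublet caller, marked 1 cell of the library by its automatic threshold, and at the expected rate 9 chaperone-high cells (3.08%) and 35 other kept cells (1.81%) scored highest. The group shared 1 barcode with the myoblast library, 1 with the MPC library and 0 with the ASC library.

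Chaperone transcripts beyond the rule genes led the genes that were higher in the group, and many genes of ribosome biogenesis were lower. Genes were compared as log2 ratios of summed CPM with a pseudocount of 5 CPM. A gene counted as measured with at least 20 CPM in the higher group, and as higher or lower at 1.5-fold or more. With 1 library there is no test and no p-value. Cells of the same library were compared by the very share that chose them, so all of these counts are descriptions. Against the other kept cells 5843 genes were measured, of which 154 (2.64%) were higher and 813 (13.9%) lower, the genes of the rule left out. The median log2 ratio of all measured genes was -0.21. Chaperone and immediate early genes took 14.0% of the group's UMIs against 5.58% in the other kept cells, and CPM values share a fixed total. Without those genes in the total, 253 were higher and 526 lower, and with trimmed-mean (TMM) scaling 295 and 367. The share of higher genes among those past the threshold was thus 15.9% as scaled here, 32.5% without those genes and 44.6% with TMM.

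HSP70 and HSP110 genes were led by the inducible pair. Hspa1b had a median of 104.5 UMIs per chaperone-high cell (range 0 to 533) against 1 in the other kept cells (0 to 421), and Hspa1a a median of 103 (0 to 613) against 1 (0 to 564). Only 2 and 1 of the 292 cells lacked them, while 36.8% and 37.5% of the other kept cells did. Summed, Hspa1b was at 10286 against 3178 CPM (3.24-fold, interval 3.19 to 3.28) and Hspa1a at 11644 against 3799 CPM (3.07-fold, 3.026 to 3.105). The 2 genes are near-identical copies, so how reads were divided between them is uncertain.

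Of the 7 measured genes in the HSP70 and HSP110 list, 5 were higher and 0 lower, beside 2.64% and 13.9% of all genes. The list's median log2 ratio was 1.28, beside -0.21 for all genes. Hspa8, the constitutive cytosolic HSP70, had a median of 82.5 UMIs (6 to 289) against 19 (0 to 286) and a fold of 2.42 (2.39 to 2.46). Hsph1, an HSP110, was at 4725 against 1654 CPM (2.86-fold, 2.80 to 2.91). Hspa4l, another HSP110 gene, was at 210.1 against 85.7 CPM. Hspa4, of the same family, was at 201 against 227 CPM and Hspa2, abundant in testis, at 28.1 against 25.2 CPM, both within 1.5-fold.

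The HSP90 list had 7 of 11 measured genes higher and 0 lower, beside 2.64% and 13.9% of all genes. Its median was 0.90. Hsp90aa1, the inducible HSP90, had a median of 96 UMIs (0 to 512) against 19 (0 to 500), and 11039 against 4152 CPM. Hsp90ab1, the constitutive form, was at 7959 against 4047 CPM (1.97-fold, 1.94 to 2.00). Cacybp had the largest ratio of the list, at 414 against 122 CPM (3.41-fold, 3.18 to 3.65). The HSP90 activators Ahsa1 and Ahsa2 were at 162 against 75.8 CPM and 75.5 against 40.7 CPM. The cochaperones Chordc1 and Fkbp4 were at 94.96 against 48.6 CPM and 140.4 against 71.2 CPM. The remaining members were within 1.5-fold: Stip1, which links HSP70 to HSP90, had a log2 ratio of 0.57, and Cdc37, Unc45a and Ptges3 lay between -0.10 and 0.02.

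DnaJ genes differed among themselves. Of 12 measured, 3 were higher and 1 was lower, beside 2.64% and 13.9% of all genes. The list's median was -0.16, near the -0.21 of all genes. Dnaja4 was at 613 against 168 CPM (3.64-fold, 3.44 to 3.86), Dnaja1 at 3771 against 1171 CPM (3.22-fold, 3.15 to 3.30) and Dnajb4 at 341 against 213 CPM (1.61-fold, 1.50 to 1.72). Dnajc2, a ribosome-bound DnaJ protein, was lower at 24.0 against 40.3 CPM. The others (Dnaja2, Dnajb2, Dnajb5, Dnajb6, Dnajc5, Dnajc7, Dnajc8 and Dnajc21) ran from -0.39 to 0.54. With TMM scaling 4 were higher and 0 lower, and the list's median was 0.03.

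Cryab was the 1 small heat shock gene measured besides Hspb1. It was at 1703 against 778 CPM, but with a median of 1 UMI per chaperone-high cell (0 to 331) and 34.9% of them at 0. Its 3 highest cells held 13.2% of its UMIs in the group. Its log2 ratio of 1.13 was 0.87 when the top 30% of cells were taken and 1.55 when the top 10% were.

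Other heat-inducible genes followed in part. Of 16 measured genes in the list around heat shock factor, 6 were higher and 0 lower, beside 2.64% and 13.9% of all genes. The list's median was 0.14. Serpinh1, the collagen chaperone of the ER, was at 712 against 266 CPM (2.68-fold, 2.55 to 2.82). Bag3, an HSP70 cochaperone of selective autophagy, had a median of 13 UMIs (0 to 118) against 3 (0 to 172), and Ubb, a polyubiquitin gene, was at 4555 against 1974 CPM. The factor itself, Hsf1, had a log2 ratio of -0.35 and Hsf2 of -0.08, both within 1.5-fold and named after their values were seen. Clu, which encodes the extracellular chaperone clusterin, had the largest log2 ratio of all named genes apart from the rule genes, 1.88 (208 against 52.9 CPM). It was present in few cells: after thinning, 22.0% of the chaperone-high and 7.63% of the other kept cells had a Clu UMI.

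Transcripts of the HSP70 genes of the mitochondria and the ER were within 1.5-fold. Those of the mitochondrial pair Hspd1 and Hspe1 were higher, but this pair was part of the rule that chose the cells. Hspa9 (mitochondrial HSP70) and Hspa5 (BiP, the HSP70 of the ER) are named here as the partners of Hspd1 and of the ER list, after their values were seen. Hspa9 was at 196 CPM against 278 in the other kept cells, with a median of 1 UMI (0 to 14) against 2 (0 to 21). Hspa5 was at 5814 against 6152 CPM, with a median of 41.5 UMIs (0 to 454) against 34 (0 to 564). Among 21 measured mitochondrial chaperones, proteases and import genes, 1 was higher and 6 lower, beside 2.64% and 13.9% of all genes, with a median of -0.47. The higher gene was Clpx, a matrix unfoldase, named after its value was seen. The lowest were the import receptor Tomm70a (26.2 against 60.8 CPM) and the small carriers Timm9 (39.0 against 87.3 CPM) and Timm8a1 (58.5 against 116 CPM).

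In the ER list 0 of 19 were higher and 4 lower (2 with TMM scaling), beside 13.9% of all genes lower, with a median of -0.27. Pdia6, a disulfide isomerase, was at 126 against 243 CPM and Hyou1, an ER HSP110, at 32.3 against 58.3 CPM. Of the 14 measured subunits of TRiC, the cytosolic chaperonin, and prefoldin, 0 passed 1.5-fold in either direction, with a median of -0.21 that equals that of all genes. The 32 proteasome genes had 0 higher and 3 lower (Psmd11, Psmd2 and Psmc5; 0 with TMM) and a median of -0.25. With TMM scaling the medians of the TRiC, ER and proteasome lists were -0.03, -0.08 and -0.05.

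**Figure D2:**
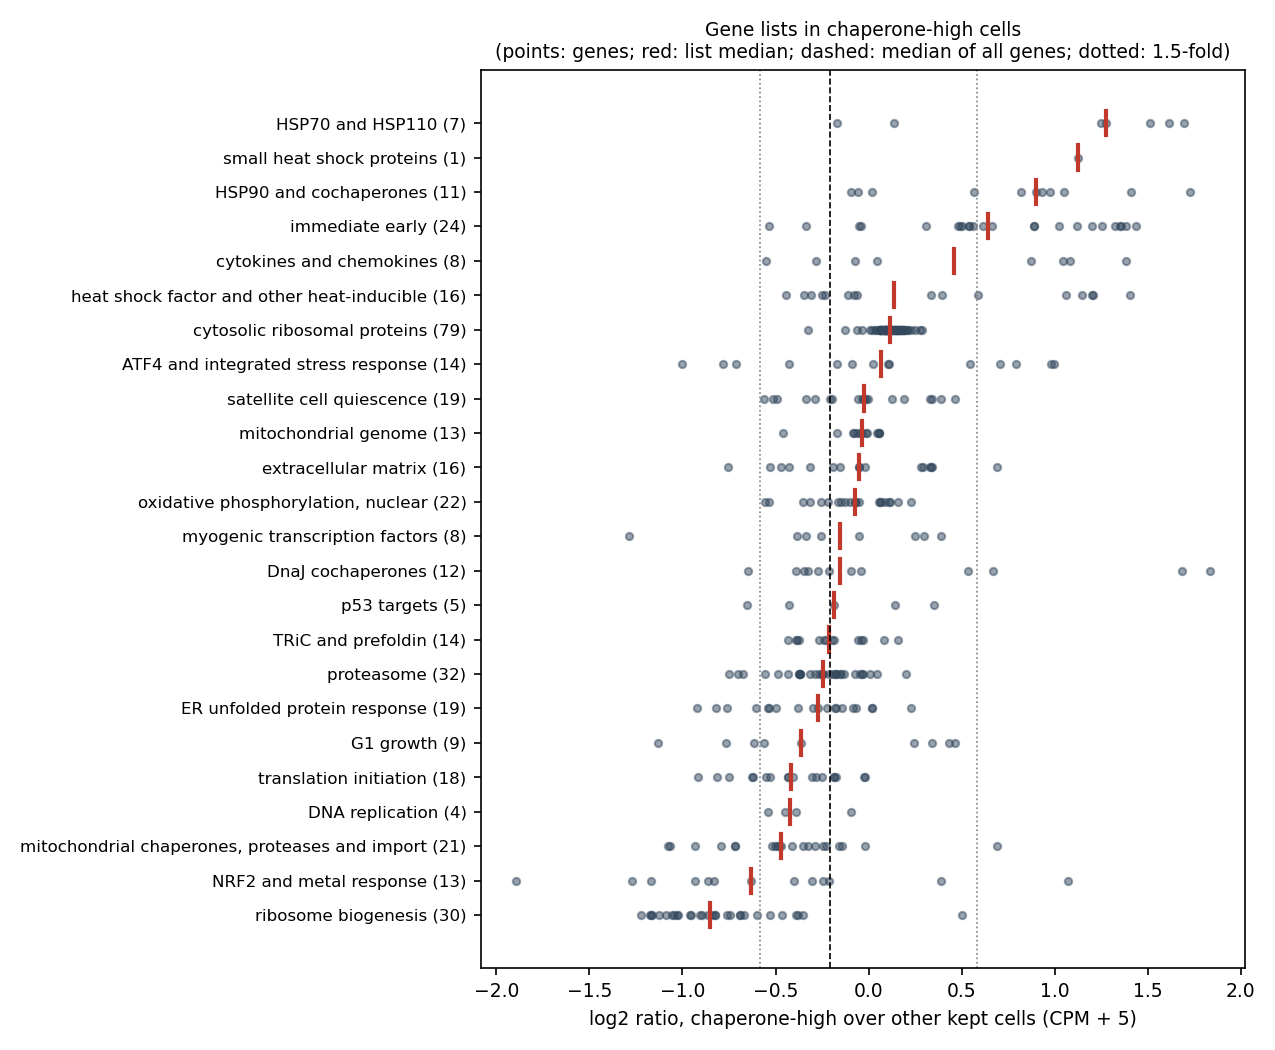
Log2 ratios of chaperone-high over other kept cells (x axis) for the measured genes of 24 gene lists (y axis, number of genes in brackets). Points are genes, red bars list medians, the dashed line the median of all genes (-0.21) and dotted lines 1.5-fold; the HSP70 list has the highest median (1.28) and ribosome biogenesis the lowest (-0.85).

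Immediate early genes, transcription factors and feedback regulators that are switched on within minutes of a stimulus, were also high in the group. All 24 were measured, and 13 were higher and 0 lower, beside 2.64% and 13.9% of all genes. The median was 0.64, beside -0.21 for all genes. Fos had a median of 12 UMIs per chaperone-high cell (0 to 382) against 1 (0 to 438), Jun 12 (0 to 353) against 2 (0 to 401) and Atf3 6 (0 to 122) against 1 (0 to 317). The largest ratios were those of Nr4a1, an orphan nuclear receptor (2.76-fold, 2.58 to 2.95), Btg2, an antiproliferative gene (2.62-fold, 2.53 to 2.71), and Zfp36, an mRNA decay factor (2.59-fold, 2.47 to 2.71). Dusp1 (-0.04), Klf4 (-0.05), Myc (-0.34) and Fosl1 (-0.54) were within 1.5-fold. The Calcr-high cells, set aside before the choice, carried as much of these transcripts: the list summed to 29488 CPM in the chaperone-high, 28879 CPM in the Calcr-high and 9902 CPM in the Slco2a1-high cells. Jun, Atf3, Dusp1, Klf4, Myc and Fosl1 were named after their values were seen.

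Among 8 measured cytokine genes, 4 passed the threshold upward and 0 downward, beside 2.64% and 13.9% of all genes, and the median was 0.46. Cxcl10 was at 293 against 109 CPM, Il6 at 35.2 against 14.0 CPM and the monocyte chemokine Ccl2 at 800 against 385 CPM, and the other was Ccl7, also a monocyte chemokine (189 against 101 CPM), named after its value was seen. Il6 came from 31 of the 292 cells, with 36.4% of its UMIs in 3 of them, and Cxcl10 came from 83 cells, with 24.7% in 3. For Ccl2, 29.8% of the UMIs lay in 3 of 115 cells. Cxcl3, a chemokine outside the list, was lower and is described with the lowest ratios.

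Targets of ATF4, a factor of the integrated stress response, had 4 of 14 higher and 3 lower, and a median of 0.07. Of all measured genes 2.64% were higher and 13.9% lower. Chac1, a glutathione-degrading enzyme, was at 40.9 against 18.0 CPM and Ddit3, a stress transcription factor, at 93.7 against 45.0 CPM. Mthfd2, a mitochondrial folate enzyme, was at 39.0 against 83.1 CPM.

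Most genes of ribosome biogenesis were lower in the group. Of 30 measured genes of this list, 0 were higher and 24 lower, with a median of -0.85, against -0.21 for all genes and 13.9% of all genes lower. Nop56, a core protein of small nucleolar ribonucleoproteins, was at 72.6 against 170 CPM (2.34-fold lower, 2.04 to 2.69). Polr1b, a subunit of RNA polymerase I, was at 7.35 against 23.8 CPM, and Wdr12, a factor of the large ribosomal subunit, at 12.2 against 33.6 CPM. Ncl (nucleolin), named after its values were seen, had a median of 6 UMIs (0 to 60) against 8 (0 to 98). With TMM scaling 19 of 29 were lower and 1 was higher. The list summed to 3706 CPM in the chaperone-high, 5958 in the remaining and 3447 CPM in the Calcr-high cells. The low level was therefore not particular to the group. The 79 measured cytosolic ribosomal protein genes were all within 1.5-fold, with a median of 0.11.

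Translation initiation factors had 5 of 18 lower and 0 higher, with a median of -0.42, beside 13.9% of all genes lower. With TMM 2 were lower and the median was -0.22. The largest was Eif4ebp1, the repressor of the cap-binding factor (89.2 against 173 CPM). Growth genes of G1 had 3 of 9 lower, the spermidine synthase gene Srm (17.9 against 45.1 CPM), Ran (145 against 250 CPM) and Nme1, and 0 higher. That balance turned with TMM, to 1 lower and 2 higher. No G2/M gene reached 20 CPM, and of 4 measured DNA replication genes 0 passed the threshold. Transcripts of oxidative phosphorylation from the nucleus (22 genes) and from the mitochondrial genome (13 genes) were within 1.5-fold, with medians of -0.07 and -0.03 that turned to 0.12 and 0.17 with TMM.

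Targets of NRF2, the regulator of the oxidative and electrophile response, had 7 of 13 measured genes lower and 1 higher. Of all measured genes 13.9% were lower and 2.64% higher, and the median of the list was -0.63. Hmox1, which degrades heme, was at 65.2 against 256 CPM. The median cell of both groups had 0 Hmox1 UMIs, and the highest cell had 17 in the chaperone-high against 116 in the other kept cells, so the difference in the sum lay in the upper tail. Gclm, a subunit of the enzyme of glutathione synthesis, was at 84.4 against 210.5 CPM, and the thioredoxin gene Txn1 at 233 against 529 CPM. The gene that was higher was Osgin1 (375 against 176 CPM), named after its value was seen. The list summed to 15671 CPM in the chaperone-high, 21689.5 in the remaining and 11859 CPM in the Calcr-high cells. Hmox1 was at 62.1 CPM in the Calcr-high cells, so the low level was not particular to the group.

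Myogenic genes gave a mixed picture, in which the rule had a part. Myod1, the activator of the myogenic program, was at 230 CPM against 522 in the other kept and 630 in the remaining cells, and the Calcr-high cells (21.9 CPM) had been set aside for being low in it. Its median was 1 UMI in both the chaperone-high (0 to 42) and the remaining cells, while the remaining cells reached 85 UMIs. Myf5 was at 385 against 399 CPM, and Myog UMIs came from 2 of the 292 cells. Calcr was at 198 CPM, against 145 in the remaining and 1299 in the Calcr-high cells. Eya1, a transcriptional coactivator, was the 1 of 8 measured genes of the myogenic list that was lower (110 against 277 CPM), and 0 were higher. Over all measured genes 13.9% were lower and 2.64% higher, so this count was near the common share. Of 19 quiescence genes 0 passed the threshold, and the lowest ratios were -0.56 for Cdkn1c, -0.51 for Sdc4 and -0.49 for Vcam1. Against the remaining cells, 3 of the 19 were higher and 2 lower, beside 3.74% and 16.5% of all genes. The list summed to 4444 CPM in the chaperone-high, 5454 in the remaining, 6137 in the Slco2a1-high and 4943 CPM in the Calcr-high cells.

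Beyond the lists, several of the lowest ratios belonged to genes with few cells behind them. Cxcl3, a neutrophil chemokine, was at 8.63 against 111 CPM, but its UMIs came from 6 of the 292 cells and 114 of the other kept cells. Col8a1 was at 29.7 against 140.2 CPM, from 10 and 163 cells. Glis3, a zinc finger factor, was at 429 against 1332 CPM, and Thsd7a, Dio2 (which activates thyroid hormone), Prune2, Sugct, Pus7 and Depdc5 had log2 ratios between -1.73 and -1.46. Cd24a, a surface glycoprotein, was at 55.0 against 16.9 CPM, with 33.7% of its UMIs in 3 cells. In a match to RefSeq gene spans (99.0% of measured genes matched), the median span was 12.5 kb for the 154 higher, 46.4 kb for the 813 lower and 33.4 kb for all measured genes. Against the remaining cells the values were closer, at 16.3 kb for higher, 36.8 kb for lower and 32.8 kb for all measured genes.

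The remaining cells share both earlier exclusions with the chaperone-high cells. Against them 5886 genes were measured, of which 220 (3.74%) were higher and 973 (16.5%) lower. With TMM 404 were higher and 484 lower, and 382 and 594 without chaperone and immediate early genes in the total, so that the share of higher genes went from 18.4% to 45.5% and 39.1%. Ratios of the chaperones were larger here: Hspa1b had a log2 ratio of 2.57, Hspa1a 2.54, Clu 2.53, Dnaja4 2.43, Dnaja1 2.30 and Cacybp 2.10. Nr4a1 (2.16) and Fos (2.07) were among the 10 highest, as were Swt1 (2.11), an RNA endoribonuclease gene, and the predicted gene Gm20481 (2.08). Among the lowest, Cd74, the invariant chain of antigen presentation, had 1 UMI in the group and 56.2 CPM in the remaining cells. In the other kept cells 98.8% of the Cd74 UMIs came from 3 cells.

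By list, the higher genes were 5 of 7 in the HSP70 and HSP110 list, 8 of 11 in the HSP90 list and 17 of 24 immediate early genes (1 was lower). In ribosome biogenesis 25 of 30 were lower, and in the NRF2 list 7 of 13. Over all genes measured against the remaining cells, 3.74% were higher and 16.5% lower.

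Levels differed along the whole range of the chaperone share and not only at the group's edge. The 1460 cells of the last step were divided into 5 bins of 292 cells by the share, the highest of which is the group itself. Hspb1 ran through 120, 538, 2255, 6253 and 19116 CPM from the lowest bin to the highest, and the genes of the HSP70 and HSP110 list, none of which chose the cells, through 2558, 4268, 8001, 16548 and 35628 CPM. HSP90 and its cochaperones went from 5015 to 20586 CPM and the immediate early list from 9164 to 29488 CPM, higher in every bin than in the one before. Ribosome biogenesis genes were at 6727, 6920, 5791, 4726 and 3706 CPM, and Hspa9 was lower in each bin, from 328 to 196 CPM. Hspa5 was highest in the middle bins, at 5802, 6208, 7470, 7448 and 5814 CPM.

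Pax7 ran upward over the bins from 555 to 980 CPM and Myod1 downward from 716 to 230 CPM. The median depth ran the same way as the share, from 6978 to 10283.5 UMIs per cell, and its part in these trends was not tested. The median mitochondrial share stayed between 3.21% and 3.53%. The lowest bin had 120 CPM of Hspb1 and 58.6 CPM of Dnajb1. Both genes were part of the sort into bins, so these values set no limit on free RNA of the droplets, which was not tested.

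**Figure D3:**
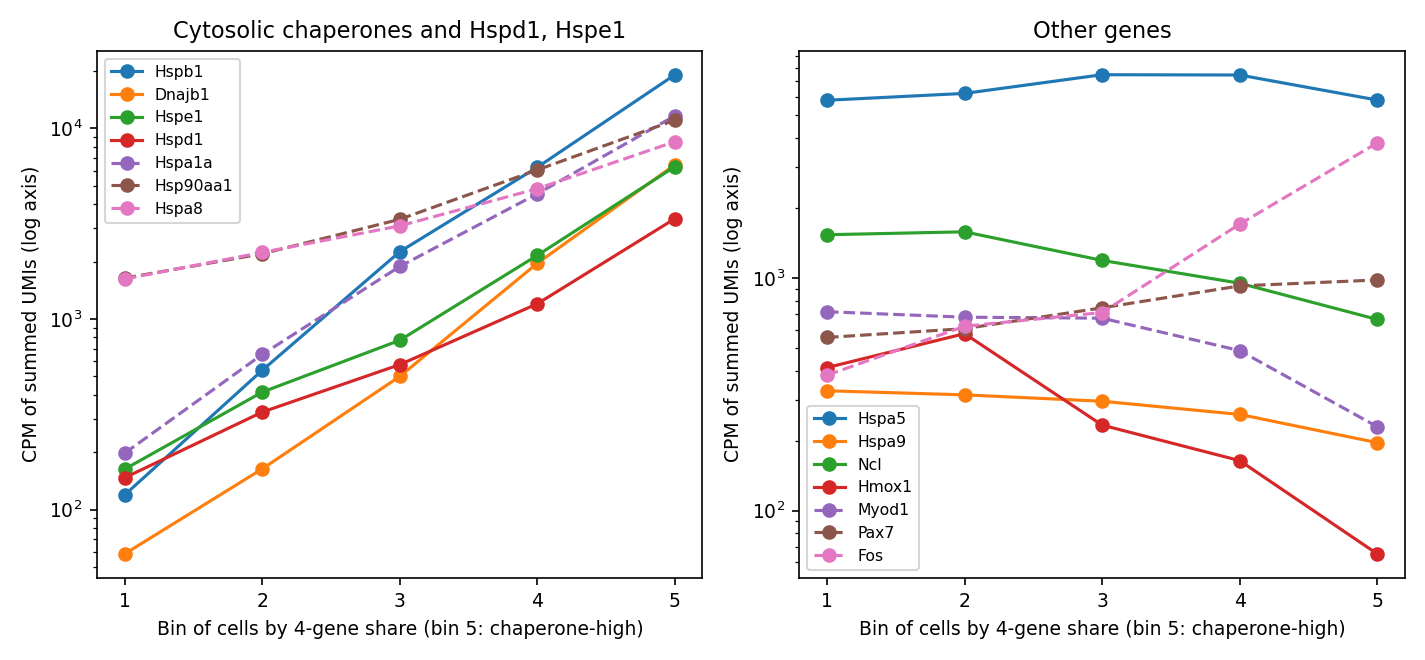
CPM of summed UMIs (y axes, log scale) in 5 bins of 292 cells by the share of the rule genes (x axes, bin 5 is the chaperone-high group). Left, the rule genes (solid lines) and 3 other cytosolic chaperones (dashed); right, the ER and mitochondrial HSP70 genes, Ncl, Hmox1, Myod1, Pax7 and Fos. Hspb1 climbs from 120 to 19116 CPM, while Hspa9 goes from 328 to 196 CPM.

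Of the groups set aside, the Calcr-high cells differed from the chaperone-high cells in fewer genes than the Slco2a1-high cells did. Against all 405 Calcr-high cells, 5805 genes were measured, of which 67 (1.15%) were higher and 496 (8.54%) lower in the chaperone-high cells. Against the 365 Slco2a1-high cells 5969 were measured, of which 560 (9.38%) were higher and 1761 (29.5%) lower. Hspa1a was at 11644 CPM in the chaperone-high, 10816 in the Calcr-high and 519 in the Slco2a1-high cells. Hspb1 was at 19116, 9967 and 1685 CPM, and Fos at 3805, 4178 and 457 CPM in the same order. The HSP70 and HSP110 list summed to 35628, 28800 and 4528 CPM.

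The Calcr-high cells took no part in the last step, so they were split at the lowest share of the chaperone-high cells, a comparison added after the data were seen. The 147 cells past it were set against the 258 below it, with 6084 genes measured, 180 (2.96%) higher and 1264 (20.8%) lower. Of 5584 genes measured here and against the remaining cells, 215 were higher in the chaperone-high cells, and 95 of them were higher in the split of the Calcr-high cells as well. That is 44.2% of the first list, beside 2.63% of all genes higher in the split, and 64.6% of the second list, beside 3.85% of all genes higher in the first comparison. Of 845 lower genes 421 were lower in both, 49.8% of the first list beside 20.1% of all genes, and 37.6% of the second list beside 15.1%. The same 4 genes define both splits, which use different cells of 1 library.

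In the Calcr-high split, Cacybp had a log2 ratio of 2.14, Dnaja1 2.02, Dnaja4 1.98, Clu 1.67, Serpinh1 1.53 and Hspa1a 1.41. Of the HSP70 and HSP110 list 5 of 7 were higher, of the HSP90 list 8 of 11 (1 lower) and of the immediate early list 15 of 24 (2 lower). In ribosome biogenesis 12 of 25 genes were lower. Over all genes measured in the split, 2.96% were higher and 20.8% lower. Hmox1 (0.17) and Col8a1 (0.29) were near even in this split, against -2.28 and -2.38 in the chaperone-high over the remaining cells. Myod1 could not be read here, since the Calcr-high cells had been chosen for at most 1 of its UMIs.

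**Figure D4:**
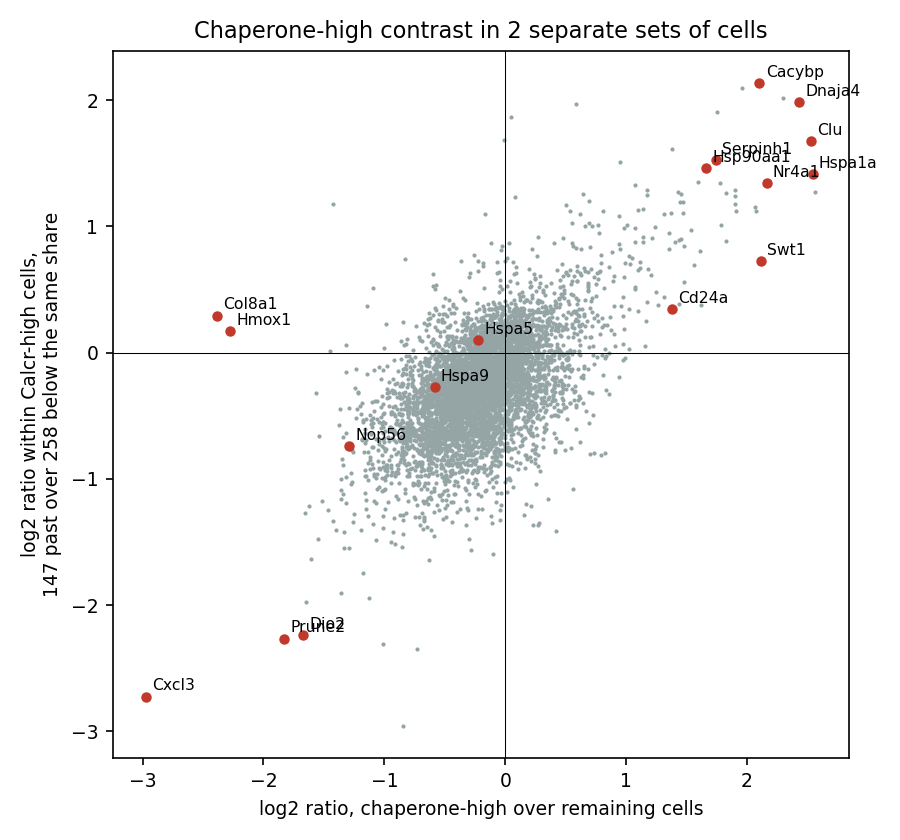
Log2 ratio of chaperone-high over remaining cells (x axis) against the log2 ratio within Calcr-high cells, 147 past over 258 below the same share (y axis); points are genes, the rule genes are left out, and named genes are red. Cacybp, Dnaja4 and Clu are high on both axes, and Hmox1 and Col8a1 are low on the x axis only.

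Cells of this kind were not found in the other 3 libraries. With every cell thinned to 2000 UMIs, 427 of 2182 fiSC cells (19.6%, exact interval 17.9 to 21.3%) lay past the lowest share of the group. None did among 5968 ASC, 2329 myoblast or 9574 MPC cells (0 of each). The upper ends of their exact intervals were 0.0618%, 0.158% and 0.0385%. Without thinning the shares were 20.2% in fiSC and 0 in the others, where the highest single cell reached 1.75% in ASC. The sum of the 4 genes was 12008 CPM for fiSC, 2578 for ASC, 1849 for myoblast and 1460 CPM for MPC cells.

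The gap was not equal between the genes. Hspd1 was at 1054 CPM in ASC, 806 in myoblast and 723 in MPC. All were below the 1230 CPM of all kept fiSC cells and the 3362 CPM of the chaperone-high cells. They were above the 605 CPM of the remaining fiSC cells, which the cut on a share that includes Hspd1 had left low in it. Hspb1 was at 136 CPM in ASC, 402 in myoblast and 110 in MPC, against 2536 CPM in the remaining cells. Hspa1a was at 76.3, 1.04 and 0.873 CPM in ASC, myoblast and MPC, against 1993 CPM in the remaining cells. With 1 library a group, the library and the kind of cell cannot be told apart, and in summed UMIs fewer cells with a transcript and less of it per cell cannot either.

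**Figure D5:**
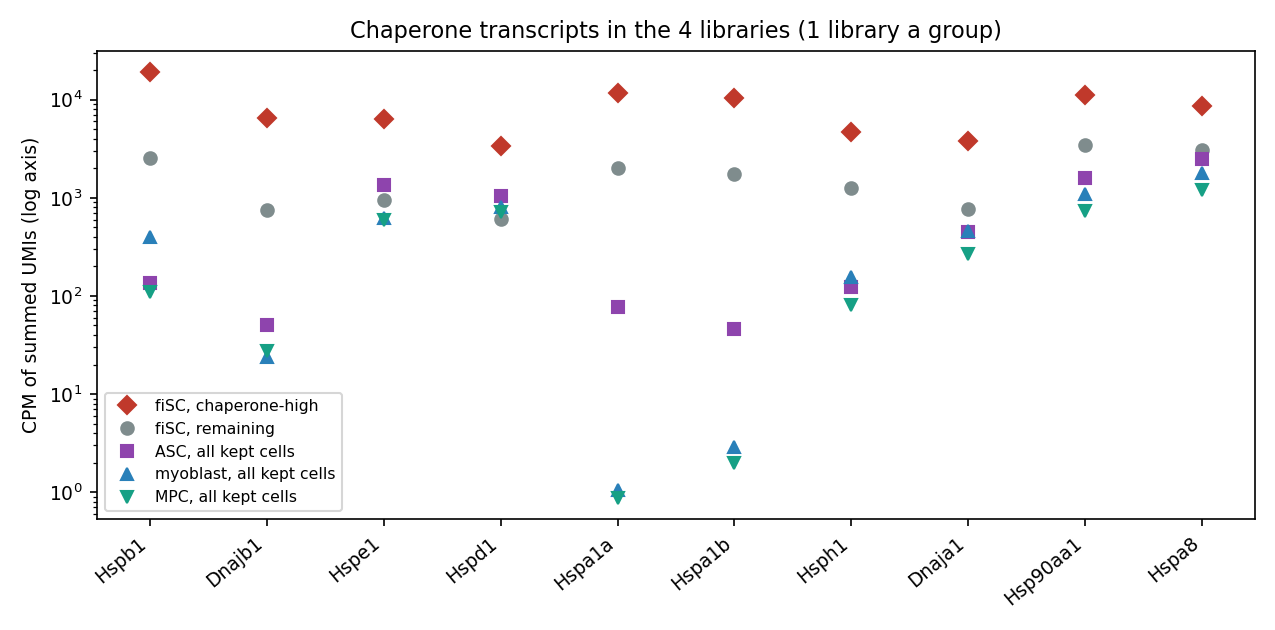
CPM of summed UMIs (y axis, log scale) of 10 chaperone genes (x axis) in chaperone-high and remaining fiSC cells and in all kept cells of the ASC, myoblast and MPC libraries, 1 library each. For Hspa1a the points run from 0.873 CPM in MPC to 11644 CPM in the chaperone-high cells, while for Hspd1 all 5 lie between 605 and 3362 CPM.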

How the data were processed

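The authors deposited raw UMI counts per gene and barcode for each of 4 libraries (10x 3′ chemistry, per the labels' protocols). STAR 2.7.10b and the build GRCm39 are given per the submitters' processing notes, and whether counting used strand is not given in the sources used here. Per library, 2705 (fiSC) to 11847 (MPC) barcodes held 21434933 to 199488336 UMIs. Members and gene lists were chosen with earlier results of these data known.

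Cells were filtered and picked by the rule above. UMIs were summed per group, scaled to CPM and compared as log2 ratios with a pseudocount of 5 CPM. Genes needed 20 CPM in the higher group and 1.5-fold. Intervals are 95% exact Poisson or binomial intervals, which cover counting error only. Named genes are the 4 rule genes, the 10 highest and 10 lowest ratios per comparison at 50 CPM or more, the 3 largest ratios of each list, every measured cytosolic chaperone, Pax7, Myf5, Myod1, Myog, Calcr and EGFP, with exceptions said in the text; 1 named gene is not reported here. UMIs at 3′ ends do not scale with gene length. Scrublet (scanpy 1.11.5) scored doublets, which were not removed. TMM factors came from edgeR 4.0.16, as an alternative only. Scripts (numpy 2.4.6, scipy 1.17.1) were tested on simulated data. Promoters came from RefSeq (GRCm38.p6), matched by symbol.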

Additional observations from a re-analysis of the deposited data

How the results depend on the processing

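With 1 library a group there was no test, and depth limits only the counting error. Over all settings, gene ratios moved by at most the distance from the middle to the end of their counting interval in 3441 cases. They moved by more in 705, and in 2 a gene past the threshold changed sign (Gdf15, below). List medians moved by at most the median of that distance over their genes in 734 cases and by more in 130. Against the other kept cells, the genes higher numbered 49 at 2-fold, 295 with TMM, 235 after thinning to 3000 UMIs and 253 without chaperone and immediate early genes in the total (added after seeing the data). The genes lower numbered 1306 for the top 10% of cells, 534 for the top 30%, 126 at 2-fold, 499 at 50 CPM, 367 with TMM and 526 without those genes. Against the remaining cells, 78 were higher at 2-fold, 404 with TMM and 382 without those genes, and 184, 484 and 594 were lower, with 606 at 50 CPM. TMM moved the median log2 ratio of all genes from -0.21 to -0.02. For the top 30% of cells Gdf15, a stress cytokine, turned from -0.65 to 0.44 against the other kept cells. Against the remaining cells it turned from -0.60 to 0.69. The cause of these and of all other changes was not tested. No paired analysis was possible because each group is 1 library. List medians had the other sign in 5 of 18 settings for quiescence and p53 targets, 4 for the mitochondrial genome, 3 for myogenic factors, oxidative phosphorylation and extracellular matrix, and 1 for DnaJ genes.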
